A study of Mus musculus with 27 samples.

Results

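Mouse morulae that had received siRNA labelled siP300 were compared, gene by gene, with morulae that had received siRNA labelled siKat6b. The comparison took the 3 libraries of each label, 6 of the 27 libraries of the series, and all 55369 rows of its count table, of which 19182 carried enough counts to be tested. All embryos were labelled wildtype. In both groups siRNA was microinjected at E0.5, the zygote stage, and the embryos were grown in KSOM, a culture medium for preimplantation embryos, until E2.75, when the cells are labelled morula blastomeres. Each library came from a pool of 15 to 20 embryos, so that a pool and not an embryo was the unit. The design text calls the replicates biological, but no label says how the pools were set up separately, and the p-values measure the spread between these samples. Libraries labelled siControl, injected at the same stage, serve below as a reference level, and those labelled siKat6a and siComb entered the fit because they share its estimate of the spread. The labels do not say what siComb combined, and siRNA sequences were not used here. A separate pair of groups is used at the end: uninjected embryos given A485 or Vehicle from E2.5 to E2.75.

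The 2 siRNAs aim at acetyltransferases of different families. p300, encoded by Ep300, belongs with CBP (Crebbp) to the KAT3 family, is recruited by many transcription factors to enhancers and promoters, and acetylates histone H3 (H3K27 and H3K18) among many other substrates. KAT6B belongs with KAT6A to the MYST family, works in a complex with BRPF, ING5 and MEAF6 subunits, and acetylates histone H3 mainly at H3K14 and H3K23. In the mouse the morula is the stage at which cells compact, acquire polarity and begin to separate into trophectoderm and inner cell mass, with transcription from the embryo's own genome already established.

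The targeted genes were read first. Levels are given throughout as CPM, the counts of a gene relative to the library total after scaling by the trimmed mean of M values (TMM, which corrects for RNA composition), in the order of replicates 1, 2 and 3. Ep300 stood at 17.9, 12.2 and 28.9 CPM in the siP300-labelled libraries and at 29.9, 29.1 and 26.1 CPM in the siKat6b-labelled ones. Replicates 1 and 2 of siP300 lay below every siKat6b library, whereas the library labelled siP300 3 lay inside their range and inside that of siControl (24.1, 24.9 and 30.6 CPM). The log2 fold change of Ep300, siP300 minus siKat6b, was -0.52 ± 0.29 (± standard error, as at all fold changes below) and was not called (edgeR quasi-likelihood test with Benjamini-Hochberg adjustment, adjusted p = 0.193). Without siP300 3 it was -0.91 with an adjusted p of 0.0378. Kat6b stood at 109, 53.5 and 83.7 CPM in siP300 and at 70.5, 83.3 and 80.9 CPM in siKat6b, so that the groups overlapped, with the lowest value in siP300 2. Its log2 fold change was 0.07 ± 0.27 with an adjusted p of 0.875. All 6 libraries except siP300 1 were below siControl for Kat6b (106, 118 and 121 CPM). The relatives Crebbp (189, 125 and 149.6 CPM against 119.7, 142 and 152 CPM) and Kat6a (21.4, 19.9 and 21.9 CPM against 17.5, 17.7 and 18.3 CPM) had adjusted p-values of 0.496 and 0.404. Directions below are therefore between libraries labelled siP300 and siKat6b, and Ep300 in siP300 3 goes against its label.

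**Figure D1:**
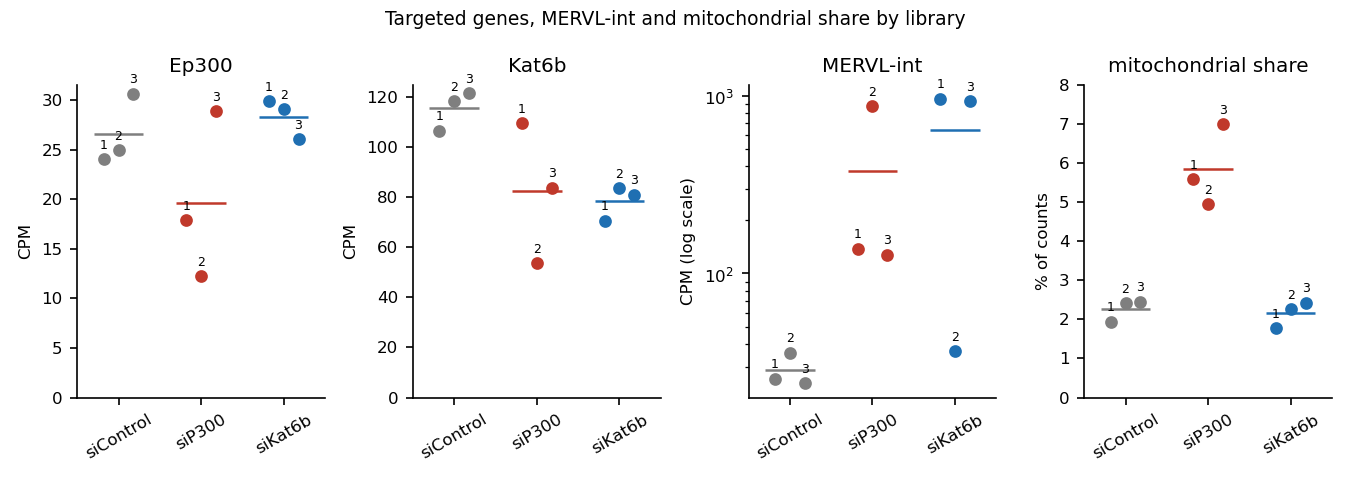
Levels of Ep300, Kat6b and the retroviral row MERVL-int in CPM, and the percentage of counts that were mitochondrial, 1 numbered point per library and a bar at the group mean. siP300 3 lies with siKat6b for Ep300, 3 of the 6 siRNA libraries lie between 868 and 959.7 CPM for MERVL-int (log axis), and the mitochondrial share separates the groups.

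Several properties of whole libraries differed between or within the groups, at totals of 9161784 to 11991314 counts per library. MERVL-int, the internal part of an endogenous retrovirus that is normally transcribed in the 2-cell embryo, stood at 138, 868 and 127 CPM in siP300, at 959.7, 36.6 and 928 CPM in siKat6b and at 25.6, 35.8 and 24.1 CPM in siControl. siP300 2, siKat6b 1 and siKat6b 3 were thus high and siKat6b 2 was at the control level, a division that crosses the labels. Its difference between groups was not called (log2 -0.76 ± 1.00, adjusted p = 0.614), although it was when no filter on low counts was used (adjusted p = 0.00135). The 3 high libraries also stood apart on the second principal component, which held 12.8% of the variance. The counts below were repeated without them, and without each library in turn. They are given again where a count above 2 moved by over 1.5 times. Counts of 2 or fewer also moved in some lists where they are not given again. In the first repeat siKat6b 2 alone stands for its group and is assumed to vary like the other groups. Mitochondrially encoded genes held 5.58, 4.93 and 6.99% of counts in siP300 and 1.78, 2.26 and 2.42% in siKat6b, groups that did not overlap (5.83 ± 1.05% against 2.15 ± 0.335%, SD, n = 3; exact two-sided permutation test, p = 0.1, the smallest that 3 against 3 allows). Genes with at least 10 counts after thinning every library to 7633990 counts numbered 17004 ± 491 in siP300 and 15325 ± 419 in siKat6b (SD, n = 3; exact permutation p = 0.1). TMM factors ran from 1.06 to 1.25 in siP300 and from 0.937 to 1.02 in siKat6b. The part of these library properties in the gene results was not tested.

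Of the 19182 genes tested, 5174 (27%) were called at an adjusted p under 0.05, 2763 (14.4%) of them higher in the siP300-labelled libraries and 2411 (12.6%) lower. All 3 siP300 libraries lay above all 3 siKat6b libraries in 4061 genes (21.2%) and below them in 3414 (17.8%). These shares over all genes are the background for the list counts that follow, and a list near them is not set apart by its count. The calls upward were larger than those downward: their median log2 fold changes were 1.79 and -1.0, and 375 genes were at least 16-fold higher where 42 were at least 16-fold lower. Many of the higher genes were close to silent in the other group, since 732 of the 2763 (26.5%) averaged under 1 CPM in siKat6b and 131 were at 0 there in every library. Genes called higher had a greater total length of annotated exons per gene (median 4434 bases) than genes called lower (3166 bases), against 3524 bases over all genes tested. The median log2 fold change over all genes was 0.05 after TMM scaling and 0.27 after scaling by library size alone, and the share of calls that were higher was then 71.1% in place of 53.4%. Where that choice turns a direction, it is said beside the result. Without the 3 MERVL-high libraries 2698 genes were called, 1286 higher and 1412 lower, and 46.1% of the 5174 calls were kept. Without siP300 3, the library with control-level Ep300, 3446 were called, 1887 higher and 1559 lower.

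The siControl libraries show on which side each group lay. Among the 2597 genes called higher whose groups did not overlap, 2186 had siP300 wholly above siControl and siKat6b not wholly below it. In 99, siKat6b lay wholly below siControl and siP300 was not wholly above it. Not wholly below or above includes overlap with siControl as well as separation on the other side. Among the 2276 genes called lower without overlap, the counts with the sides exchanged were 1927 and 101. Tested against siControl, which both contrasts share, siP300 had 6789 called genes (35.4%) and siKat6b had 4 (0.0209%). The siKat6b genes, named after their values were seen, were Ndufa10, Rgs2, Mgst3 and Gm364. Ndufa10, a subunit of respiratory complex I, stood at 69.6, 101 and 73.3 CPM in siKat6b, 179, 207 and 158 CPM in siP300 and 218, 226 and 227 CPM in siControl, so that siKat6b was lowest and siP300 lay between it and siControl. Mgst3, a microsomal glutathione transferase, was at 21.1, 17.9 and 21.5 CPM in siKat6b and 47.7, 60.6 and 59.8 CPM in siControl, with siP300 at 25.8, 50 and 38 CPM between and beside them. Rgs2, a regulator of G protein signalling, was at 0.898, 2.27 and 2.84 CPM in siKat6b, at 0 in every siControl library and at 13.3, 11.2 and 13.2 CPM in siP300. Gm364 was at 9.43, 14.4 and 10.6 CPM in siKat6b against 3.88, 2.7 and 4.89 CPM in siControl and 72.9, 92.8 and 62 CPM in siP300, higher again. Correlations of log CPM between siP300 and siKat6b libraries ran from 0.841 to 0.887 and between siKat6b and siControl libraries from 0.925 to 0.966, against 0.908 to 0.932 within siP300 and 0.934 to 0.948 within siKat6b.

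**Figure D2:**
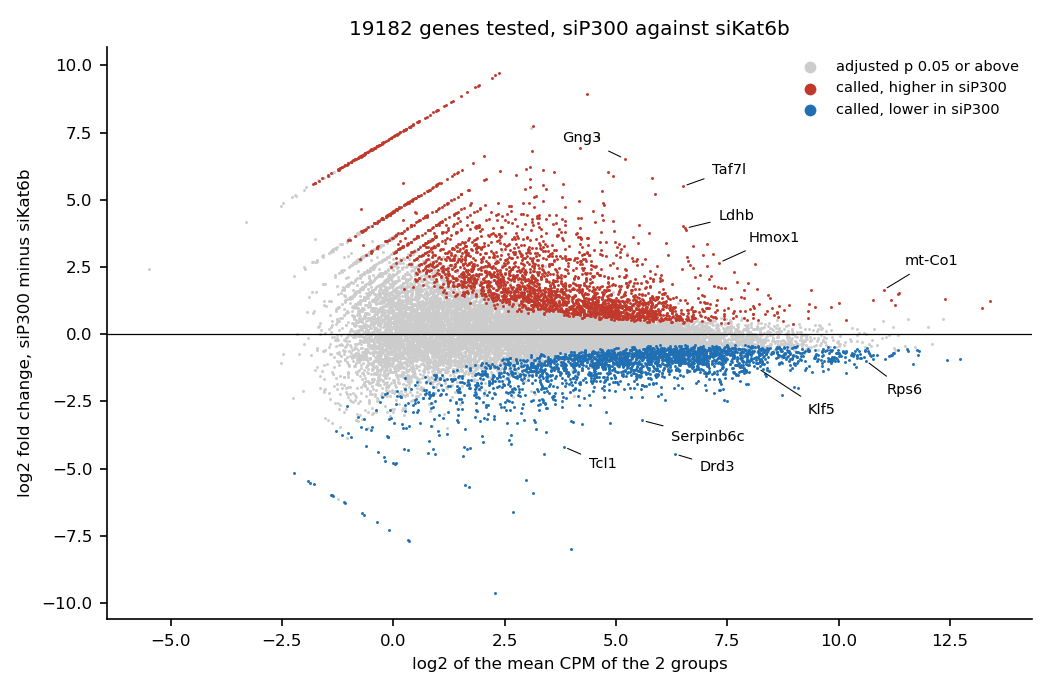
Log2 fold change, siP300 minus siKat6b, against the log2 mean CPM of both groups, 1 point per gene tested. Red and blue points are the 2763 and 2411 called genes. The straight lines of points at the upper left are genes at 0 or at a few counts in siKat6b. Their fitted fold changes depend on the default prior count of the fit.

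Genes of the antioxidant response, most of them known targets of the transcription factor NRF2 (Nfe2l2), were more often higher than lower in the siP300-labelled libraries. Of 29 tested, 13 were called higher and 3 lower, with a median log2 fold change of 0.37. Gstm1, a glutathione transferase, stood at 74.7, 115 and 71.1 CPM in siP300 and 7.63, 6.39 and 1.83 CPM in siKat6b, with siControl at 6.04, 4.22 and 3.26 CPM. Every siP300 library was thus far above the others, a log2 fold change of 4.04 ± 0.43 (adjusted p = 9.38e-06). Nqo1, a quinone reductase, was at 71, 72.8 and 44.5 CPM against 7.63, 4.74 and 8.52 CPM (log2 3.17 ± 0.30, adjusted p = 3.69e-06). Srxn1, which regenerates peroxiredoxins, was at 144, 116 and 123 CPM against 13.5, 19.4 and 16.7 CPM (log2 2.95 ± 0.29, adjusted p = 4.32e-06). Hmox1, the heme-degrading oxygenase, was at 368, 223 and 234 CPM against 34.4, 45.4 and 50.9 CPM, with no overlap between groups (log2 2.66 ± 0.23, adjusted p = 1.33e-06). Gclm, the modifier subunit of the enzyme that starts glutathione synthesis, was at 326, 196 and 274 CPM against 63.1, 99.4 and 82.1 CPM (log2 1.70 ± 0.21, adjusted p = 4.07e-05). Not all of the list moved this way: the 3 lower members were Sod2, Gpx1 and Gsto1, named after their values were seen, and the regulators Nfe2l2 and Keap1 were not called. Gpx1 lost its call without any of 5 libraries in turn, with the adjusted p reaching 0.242 without siKat6b 2, and also with library size alone (0.255), just the 2 groups (0.176), no filter (0.133) or a replicate block (0.0599). The counts were 9 higher and 3 lower without the 3 MERVL-high libraries, and 12 and 2 without siP300 3.

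Since members of this list were called together, their upstream sequences were searched for TGACNNNGC, the core of the antioxidant response element, on both strands of the 250 bases before the RefSeq start (build GRCm38.p6). Of the 29 genes 24 had an entry in the sequence table, and 5 (20.8%) held the motif, against 10.1% of the 27025 promoters of the same length. It was found in 4 of the 10 matched genes called higher, namely Gclm, Prdx1, Sod1 and G6pdx, in 0 of the 3 called lower and in 1 of the 11 not called. A match is a run of letters and not a measured site, and its absence says only that these letters are not in this window. The 3 sequences below are shown because they are those of called members that hold a match outside the annotated gene. They run 5′ to 3′ on the gene's strand and stop before the first annotated transcribed base, with the match, on either strand, in capitals. They lie at chr3:122245307-122245556 (+) for Gclm, chr4:116685349-116685543 (+) for Prdx1 and chr16:90220512-90220753 (+) for Sod1.
Gclm: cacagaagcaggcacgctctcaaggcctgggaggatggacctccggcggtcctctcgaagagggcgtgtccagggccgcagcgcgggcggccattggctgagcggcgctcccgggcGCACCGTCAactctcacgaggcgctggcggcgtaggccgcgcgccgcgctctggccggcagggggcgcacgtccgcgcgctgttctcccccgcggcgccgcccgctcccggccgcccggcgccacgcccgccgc
Prdx1: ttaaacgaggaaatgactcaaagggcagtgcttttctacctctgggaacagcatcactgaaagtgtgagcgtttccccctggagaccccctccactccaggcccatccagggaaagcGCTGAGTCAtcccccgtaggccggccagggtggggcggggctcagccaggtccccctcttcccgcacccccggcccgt
Sod1: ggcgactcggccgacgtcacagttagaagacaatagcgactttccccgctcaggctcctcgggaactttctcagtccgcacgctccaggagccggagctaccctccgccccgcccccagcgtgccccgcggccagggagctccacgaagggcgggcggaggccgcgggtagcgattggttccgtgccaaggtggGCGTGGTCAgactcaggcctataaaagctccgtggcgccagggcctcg
Prdx1, an abundant peroxiredoxin, stood at 3486, 4808 and 3076 CPM in siP300 and 1126, 1536 and 1364 CPM in siKat6b (log2 1.5 ± 0.22, adjusted p = 0.000141). Sod1, the cytosolic superoxide dismutase, was at 164, 146 and 136 CPM against 73.2, 92.8 and 88.4 CPM (log2 0.81 ± 0.17, adjusted p = 0.00209). Both were named for their match after their values were seen, and neither gene's groups overlapped. Sod1 lost its call without the 3 MERVL-high libraries (adjusted p = 0.0991).

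Targets of the tumour suppressor p53 were called higher in the siP300-labelled libraries in 17 of 34 tested and lower in 2, against 14.4% and 12.6% of all genes (median log2 0.62). Mdm2, the ubiquitin ligase that p53 induces and that degrades it, stood at 412, 385 and 518 CPM in siP300 and 139.7, 98.6 and 173 CPM in siKat6b, and siControl was lower still at 81.5, 86.2 and 81.8 CPM. The groups did not overlap, and the log2 fold change was 1.68 ± 0.20 (adjusted p = 2.43e-05). Trp53inp1, a p53-induced nuclear protein, was at 193, 153 and 194 CPM against 71.2, 57.3 and 66.2 CPM (log2 1.47 ± 0.17, adjusted p = 2.46e-05). Pmaip1, which encodes the death-promoting protein NOXA, was at 244, 211 and 298 CPM against 109, 43.1 and 75.5 CPM (log2 1.72 ± 0.28, adjusted p = 0.000353). For Pmaip1 the spread within siKat6b was wide, with replicate 1 highest and replicate 2 lowest, but the highest of them stayed under the lowest siP300 value. Btg2, an antiproliferative gene, and Ccng1, cyclin G1, had log2 fold changes of 1.37 ± 0.20 (adjusted p = 0.000153) and 0.85 ± 0.15 (adjusted p = 0.000585). In the repeat without the 3 MERVL-high libraries 12 members were higher and 1 lower.

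The integrated stress response and chaperone lists held calls in both directions, and the interferon list had calls in the higher direction alone. Of 38 integrated stress response genes 7 were called higher, near the 14.4% of all genes, and 9 lower, against 12.6%. Their median log2 fold change was -0.05. Stress response calls higher in siP300 numbered 4 without siP300 3, and lower calls 5 with library size alone or without the 3 MERVL-high libraries. The median was 0.20 with library size alone, 0.06 without siKat6b 3 and 0.38 without the 3 MERVL-high libraries. Atf3, a stress-induced transcription factor, was at 21.2, 45.4 and 38.9 CPM against 2.47, 1.65 and 1.22 CPM (log2 4.30 ± 0.55, adjusted p = 4.91e-05), and Ddit3, which encodes CHOP, had a log2 fold change of 1.99 ± 0.30 (adjusted p = 0.000187). Phgdh, the first enzyme of serine synthesis and usually grouped with them, went the other way at 70.3, 37.8 and 43.2 CPM against 299, 143 and 189.9 CPM (log2 -2.06 ± 0.29, adjusted p = 0.000124). Among 30 heat shock and chaperone genes 7 were higher and 10 lower (median log2 -0.27). Chaperone calls higher in siP300 numbered 4 without siP300 3 and 3 without siKat6b 2, and lower calls 5 without the 3 MERVL-high libraries. Hspb1, a small heat shock protein, stood at 493, 649 and 369 CPM in siP300 and 221, 139 and 183 CPM in siKat6b, while the cytosolic chaperones Hsp90aa1 (log2 -0.97 ± 0.18, adjusted p = 0.000795) and Hsph1 (log2 -1.41 ± 0.22, adjusted p = 0.000251), which are heat-inducible too, were lower. The interferon and double-stranded RNA list had 6 higher and 0 lower of 21 tested (median log2 0.37). Interferon calls higher in siP300 numbered 3 without the 3 MERVL-high libraries. Rsad2, the antiviral protein viperin, was at 19, 3.73 and 8.32 CPM in siP300 and at 0 in every siKat6b and siControl library, at least 98.1-fold higher if the siKat6b group is set to the 3 counts that a total of 0 allows (adjusted p = 0.000178). Its fellow members Isg15, Ifit1 and Mx1, which interferon is known to induce, carried too few counts to be tested.

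Imprinted genes, which are expressed from 1 parental allele, were more often higher than lower. Of 31 tested, 17 were called higher and 1 lower, with a median log2 fold change of 1.37, and the reads do not tell alleles apart here. Cdkn1c, the cell cycle inhibitor p57, stood at 61.4, 52.5 and 64.9 CPM in siP300, 8.31, 7.22 and 8.93 CPM in siKat6b and 1.94, 4.22 and 2.85 CPM in siControl, 3 levels that did not overlap. Its log2 fold change was 2.87 ± 0.29 (adjusted p = 5.74e-06). Impact, a regulator of the GCN2 kinase, was at 139.8, 189.7 and 190.3 CPM against 29.2, 27.9 and 30.4 CPM (log2 2.57 ± 0.20, adjusted p = 6.30e-07). Slc22a18, a transporter gene of the cluster that also holds Cdkn1c, was at 16.1, 11.8 and 21.3 CPM against 0.225, 1.44 and 1.01 CPM (log2 4.17 ± 0.47, adjusted p = 1.83e-05). Mest, a paternally expressed gene, had a log2 fold change of 2.09 ± 0.29 (adjusted p = 9.83e-05). Imprinted gene calls higher in siP300 numbered 11 without the 3 MERVL-high libraries.

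The Dlk1-Dio3 imprinted region on chromosome 12 (GRCm38), which carries noncoding RNAs read from the maternal allele and coding genes read from the paternal one, contributed 5 of these calls. They are given together here because of their positions, a choice made after their values were seen. Meg3, the long noncoding RNA at chr12:109541001-109571726 (+), stood at 294, 47.1 and 171 CPM in siP300, 4.27, 16.9 and 10.2 CPM in siKat6b and 4.1, 4.75 and 5.09 CPM in siControl. The spread within siP300 was several-fold, but its lowest library, replicate 2, was above every siKat6b library (log2 4.02 ± 0.56, adjusted p = 9.83e-05). Rian, the noncoding RNA downstream of it, was at 48.6, 21.1 and 27.3 CPM against 0.225, 5.36 and 1.42 CPM (log2 3.77 ± 0.63, adjusted p = 0.000405). Rtl1, a retrotransposon-derived coding gene on the opposite strand, was at 24.1, 6.95 and 15.3 CPM against 0.225, 1.65 and 0.203 CPM (log2 4.45 ± 0.70, adjusted p = 0.000263). Mirg, a microRNA host transcript, was at 14.7, 1.97 and 6.11 CPM against 0.898, 1.24 and 1.62 CPM (adjusted p = 0.023). Dlk1, the coding gene that opens the region, was at 2.58, 0.415 and 1.21 CPM in siP300 and at 0 in siKat6b and siControl, at least 13.4-fold higher. Dlk1 and Mirg lost their calls without the 3 MERVL-high libraries (adjusted p = 0.122 and 0.0988), and Mirg also without siP300 1 (0.136), siKat6b 1 (0.0824) or siKat6b 2 (0.0653), with all 27 libraries in the fit (0.0545) and with limma-voom (0.0576). The strand setting of the authors' counting is not stated, so reads of Rtl1 and of transcripts opposite to it cannot be told apart.

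Mitochondrially encoded genes differed one by one as their summed share did. Of 14 tested 10 were called higher and none lower, with a median log2 fold change of 1.25 against 0.05 over all genes. mt-Co1, a subunit of cytochrome oxidase, stood at 3014, 2942 and 3430.0 CPM in siP300 and 856, 1008 and 1135 CPM in siKat6b (log2 1.65 ± 0.16, adjusted p = 3.23e-06). mt-Nd2, a complex I subunit, was at 3503, 4001 and 4166 CPM against 1265, 1374 and 1385 CPM (log2 1.54 ± 0.15, adjusted p = 5.21e-06), again without overlap. The nuclear side differed. Of 32 genes for mitochondrial DNA upkeep and protein import 1 was called higher and 16 lower (median log2 -0.54). Timm23, the channel of the inner membrane, stood at 682, 645 and 408 CPM against 1200.0, 1240.0 and 1020.0 CPM (log2 -1.0 ± 0.19, adjusted p = 0.00112), and Phb2, a prohibitin, had a log2 fold change of -1.37 ± 0.28 (adjusted p = 0.0019). Upkeep and import calls lower in siP300 numbered 8 with library size alone or without the 3 MERVL-high libraries and 9 without siP300 3. Of 72 nuclear respiratory chain genes 5 were higher and 11 lower (median log2 -0.14). Over all genes 14.4% were higher and 12.6% lower, so the lower count was near that share. Respiratory chain calls higher in siP300 numbered 12 with library size alone, 3 without siP300 3, siKat6b 1 or siKat6b 3 and 1 without the 3 MERVL-high libraries, and lower calls 5 with library size alone or without siP300 3 and 6 without siP300 1 or siKat6b 2. The median was 0.08 with library size alone. Ndufa4, a cytochrome oxidase subunit, was among the higher ones at 845, 932 and 888 CPM against 365, 457 and 404 CPM (log2 1.12 ± 0.18, adjusted p = 0.000373).

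Carbohydrate and lipid metabolism showed both directions, against 14.4% of all genes called higher and 12.6% lower. Of 27 glycolysis genes 10 were higher and 5 lower (median log2 0.63). Glycolysis calls lower in siP300 numbered 2 with library size alone, without siP300 3 or siKat6b 1 or without the 3 MERVL-high libraries and 3 without siKat6b 2. Ldhb, the heart-type lactate dehydrogenase subunit, stood at 129, 226 and 174 CPM in siP300 and 8.31, 7.22 and 18.9 CPM in siKat6b (log2 3.94 ± 0.39, adjusted p = 4.65e-06). Pfkfb2, which sets the level of a glycolytic activator, was at 18.6, 26.2 and 36.5 CPM against 3.82, 3.09 and 4.87 CPM (log2 2.79 ± 0.35, adjusted p = 4.14e-05). Hk2, a hexokinase, and Pdha1, a subunit of pyruvate dehydrogenase, were lower, at log2 -1.96 ± 0.27 (adjusted p = 9.86e-05) and -1.41 ± 0.20 (adjusted p = 0.000141). Among 25 cholesterol synthesis genes 8 were higher and 2 lower (median log2 0.06). Cholesterol synthesis calls higher in siP300 numbered 3 without siP300 3, 5 without siKat6b 1 and 4 without siKat6b 2 or without the 3 MERVL-high libraries, and lower calls 0 with library size alone, without siP300 3 or siKat6b 2 or without the 3 MERVL-high libraries. The median was -0.07 without siKat6b 2. Lysosome genes had 10 higher and 5 lower of 36 (median log2 0.07), with Gpnmb, a lysosomal membrane glycoprotein, at 27.9, 17.4 and 26.4 CPM against 0, 0.413 and 0.609 CPM (log2 6.05 ± 0.66, adjusted p = 1.11e-05). Lysosome calls higher in siP300 numbered 6 without siKat6b 1 and 5 without the 3 MERVL-high libraries, and lower calls 3 with library size alone, without siP300 3 or siKat6b 1 or without the 3 MERVL-high libraries. The median was -0.01 without siKat6b 1, siKat6b 2 or siKat6b 3 or without the 3 MERVL-high libraries.

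Genes that make ribosomes formed the largest group in the other direction. Of 77 genes for cytosolic ribosomal proteins 62 were called lower in the siP300-labelled libraries and 0 higher, against 12.6% lower over all genes, with a median log2 fold change of -0.73. Summed over the list, they held 71401, 79014 and 54349 CPM in siP300 and 112879, 122276 and 93587 CPM in siKat6b, and siP300 2, the highest of its group, remained under every siKat6b library. Rps6, a small-subunit protein, stood at 992, 1348 and 815 CPM against 2309, 2164 and 1748 CPM, with siControl at 2404, 2340.0 and 2302 CPM (log2 -0.98 ± 0.18, adjusted p = 0.000937). Rpl3, a large-subunit protein, was at 615, 546 and 484 CPM against 1187, 1038 and 1032 CPM (log2 -0.99 ± 0.16, adjusted p = 0.000338). Both genes' groups were separate, as were those of 64 of the 77 genes, with siP300 below, against 17.8% of all genes. Ribosomal protein genes have many processed copies in the genome, so the counts of single members depend on how the authors' counting treated shared reads. Of 49 ribosome biogenesis genes 28 were lower and 0 higher (median log2 -0.76). Nop2, a ribosomal RNA methyltransferase, was at 30.3, 25 and 21.6 CPM against 57.3, 64 and 65.8 CPM (log2 -1.28 ± 0.19, adjusted p = 0.000198), and Wdr12, a processing factor, had a log2 fold change of -1.26 ± 0.19 (adjusted p = 0.000208). Without the 3 MERVL-high libraries 61 ribosomal protein and 17 biogenesis genes were lower, and without siP300 3 46 and 19. With library size alone the counts were 54 and 20, still with 0 higher.

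Pluripotency and epiblast genes were also lower: 20 of 34 tested, against 1 higher, with a median log2 fold change of -1.09. Utf1, a chromatin-bound factor of pluripotent cells, stood at 12.4, 13.5 and 14.5 CPM in siP300, 65.8, 58 and 80.6 CPM in siKat6b and 72.7, 70.3 and 65.6 CPM in siControl, low in all 3 siP300 libraries (log2 -2.34 ± 0.19, adjusted p = 1.01e-06). Klf5, a Krüppel-like factor that acts in both early lineages, was at 210.0, 155 and 148 CPM against 419, 393 and 411 CPM (log2 -1.25 ± 0.17, adjusted p = 9.83e-05). Zfp42, which encodes the pluripotency marker REX1, was at 96.7, 51 and 65.5 CPM against 196, 192 and 189 CPM (log2 -1.44 ± 0.22, adjusted p = 0.000182). Tcl1, a cofactor of the AKT kinase, was at 0.184, 2.49 and 1.74 CPM against 35, 17.7 and 28 CPM (log2 -4.18 ± 0.52, adjusted p = 4.08e-05), and Tdh, the threonine dehydrogenase of early embryos, at 3.87, 2.28 and 3.09 CPM against 32.6, 21.4 and 34.9 CPM (log2 -3.26 ± 0.46, adjusted p = 0.000112). In bulk pools fewer cells of a type and less RNA per cell cannot be told apart. The lower calls were 11 without the 3 MERVL-high libraries and 15 without siP300 3. Of the defining pluripotency markers, Pou5f1 and Nanog were called lower, Klf4 and Esrrb were not called, and Sox2 was at 0 in every library of the series. Pou5f1 and Nanog lost their calls without the 3 MERVL-high libraries (adjusted p = 0.152 and 0.108), and Nanog also when just the 2 groups were fitted (0.0508). Klf4 and Esrrb were called lower without siP300 1 (adjusted p = 0.0142 and 0.00256), and Esrrb also with DESeq2 (0.024), limma-voom (0.0261), all 27 libraries in the fit (0.0281) or no filter (0.0001). The annotated span of Sox2 (chr3:34650405-34652461) lies inside that of Sox2ot, and whether that overlap removed its reads was not tested.

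The lineage lists held calls in both directions. Of 47 trophectoderm genes 6 were higher and 15 lower (median log2 -0.33). Dab2, an endocytic adaptor, was at 118, 81.7 and 119 CPM against 375, 394 and 375 CPM (log2 -1.85 ± 0.17, adjusted p = 2.82e-06), and Id3, a target of BMP signalling, at 40.4, 46.1 and 19.7 CPM against 183, 75.9 and 136 CPM (log2 -1.90 ± 0.31, adjusted p = 0.000388). The marker Cdx2, the transcription factor that defines trophectoderm, was at 4.8, 3.11 and 4.16 CPM against 23.8, 18.1 and 18.1 CPM, called lower and without overlap, whereas the keratins Krt8 and Krt18 were not called. Higher members were Cldn6, a tight junction protein, at 80.3, 79.9 and 62.5 CPM against 34.9, 20.4 and 25.4 CPM (log2 1.46 ± 0.21, adjusted p = 0.000141), and the galectins Lgals1 (log2 1.42 ± 0.21, adjusted p = 0.000168) and Lgals3 (log2 2.06 ± 0.26, adjusted p = 5.21e-05). Primitive endoderm genes had 5 calls each way of 24, with a median log2 fold change of -0.15. Primitive endoderm calls higher in siP300 numbered 3 without siP300 3 or siKat6b 1 and 2 without the 3 MERVL-high libraries, and lower calls 3 with library size alone or without siP300 2 and 2 without the 3 MERVL-high libraries. The median was 0.09 with library size alone and 0.21 without the 3 MERVL-high libraries. Sparc, an extracellular matrix protein, was at 82.8, 60.4 and 48.3 CPM against 18.6, 14 and 15.8 CPM (log2 1.98 ± 0.29, adjusted p = 0.000152), and Cited1, which binds p300 and CBP, at 79.5, 93 and 48.2 CPM against 238, 255 and 264 CPM (log2 -1.78 ± 0.26, adjusted p = 0.00014). Hippo pathway genes had 5 higher and 4 lower of 28, near the 14.4% and 12.6% of all genes, with a median close to 0. Hippo calls higher in siP300 numbered 8 with library size alone and 2 without siP300 3, siKat6b 1 or siKat6b 2 or without the 3 MERVL-high libraries, and lower calls 2 without the 3 MERVL-high libraries. The median was 0.22 with library size alone, 0.06 without siP300 2, 0.07 without siP300 3 and 0.12 without the 3 MERVL-high libraries. Wwtr1, which encodes the coactivator TAZ, was at 68, 32.2 and 58.2 CPM against 183, 186 and 163 CPM (log2 -1.75 ± 0.22, adjusted p = 4.24e-05), and Amot, an angiomotin that holds YAP in the cytoplasm, at 13.8, 8.92 and 14.5 CPM against 42.4, 57.8 and 35.1 CPM (log2 -1.85 ± 0.25, adjusted p = 8.15e-05). Mob1b was higher at 61.1, 67 and 76.6 CPM against 32.3, 29.9 and 38.8 CPM (log2 1.02 ± 0.17, adjusted p = 0.000453). Amotl1 was higher too, at 10.9, 7.26 and 20.1 CPM against 3.82, 2.48 and 1.42 CPM (log2 2.31 ± 0.54, adjusted p = 0.00464). Among 34 compaction and polarity genes 1 was higher and 8 lower (median log2 -0.33), with Ezr, the ezrin of the apical domain, at 31.6, 19.5 and 29 CPM against 72.3, 87 and 85.8 CPM (log2 -1.61 ± 0.21, adjusted p = 7.09e-05). Compaction and polarity calls higher in siP300 numbered 4 with library size alone and 3 without siP300 2, and lower calls 13 without siP300 1, 5 without siP300 3 and 2 without the 3 MERVL-high libraries. The counts of trophectoderm calls stayed within 1.5 times in these repeats, and their median was -0.11 with library size alone.

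Cell cycle genes were lower in 20 of 46 and higher in 4 (median log2 -0.40). Mcm3, a subunit of the replicative helicase, stood at 53.7, 34.6 and 33.7 CPM against 122, 136 and 118 CPM (log2 -1.62 ± 0.20, adjusted p = 4.02e-05), and Rrm2, the small subunit of ribonucleotide reductase, at 633, 479.7 and 669 CPM against 1177, 1204 and 1323 CPM (log2 -1.05 ± 0.17, adjusted p = 0.00026). Ccnd2, cyclin D2, was the contrary case at 64.4, 39.2 and 71.4 CPM against 2.02, 2.48 and 4.87 CPM (log2 4.21 ± 0.35, adjusted p = 1.20e-06), with every siP300 library far above every siKat6b one. Cell cycle calls lower in siP300 numbered 12 with library size alone or without siP300 3 and 11 without the 3 MERVL-high libraries. Genes of zygotic genome activation were lower in 11 of 23 and higher in 0 (median log2 -0.59; 1 higher with DESeq2 or limma-voom and 2 with no filter). Ddx21, a nucleolar helicase, was at 117, 142 and 82.4 CPM against 251, 212 and 198 CPM (log2 -0.96 ± 0.22, adjusted p = 0.00419). Genome activation calls lower in siP300 numbered 6 without siP300 3, 7 without siKat6b 3 and 5 without the 3 MERVL-high libraries.

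**Figure D3:**
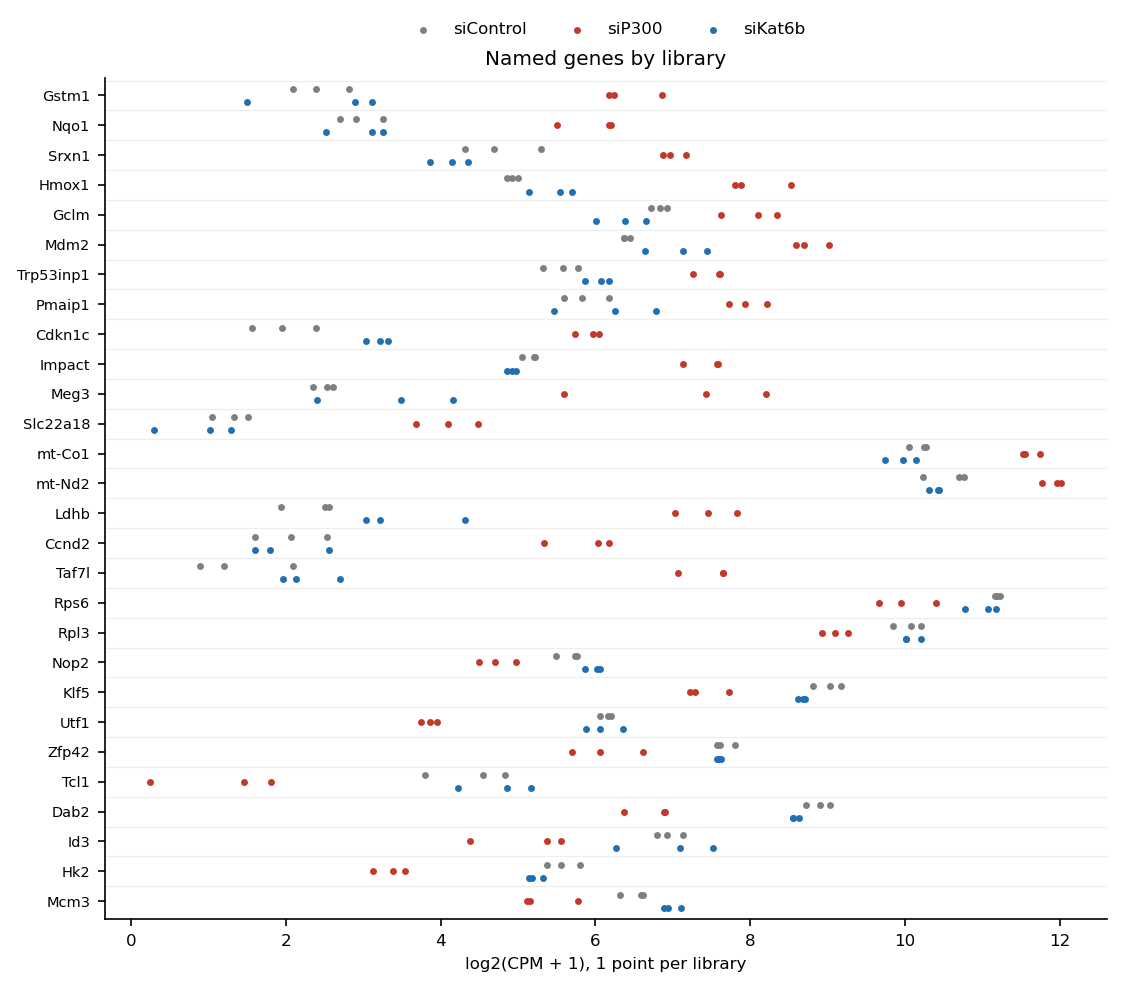
Levels of 28 named genes, log2(CPM + 1), 1 point per library, in siControl (grey), siP300 (red) and siKat6b (blue). In each gene drawn the 3 siP300 points lie on 1 side of the 3 siKat6b points.

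The enzymes' own families and partners come next. Of 22 p300, CBP and partner genes 2 were higher and 1 lower (median log2 0.07), against 27% of all genes in either direction. Partner gene calls higher in siP300 numbered 6 with library size alone, and lower calls 3 without siP300 1. The median was -0.10 without siP300 1. Creb1, which binds the KIX domain of both coactivators, was at 38.4, 31.1 and 40.6 CPM against 19.1, 16.9 and 20.1 CPM (log2 0.97 ± 0.20, adjusted p = 0.00187), and Crtc3, a coactivator of CREB, at 25.1, 13.1 and 19.1 CPM against 7.63, 5.16 and 3.65 CPM (log2 1.80 ± 0.37, adjusted p = 0.00202). Of 32 MYST family and subunit genes 3 were higher and 6 lower, with a median log2 fold change of -0.03. MYST calls higher in siP300 numbered 1 without siP300 1, siP300 3, siKat6b 1 or siKat6b 2, and lower calls 2 with library size alone, 3 without siKat6b 3 and 1 without the 3 MERVL-high libraries. The median was 0.20 with library size alone, 0.10 without siP300 2, 0.01 without siKat6b 1, 0.00 without siKat6b 3 and 0.04 without the 3 MERVL-high libraries. Ing5, a reader subunit of the KAT6 complexes, stood at 25.3, 20.5 and 22.8 CPM against 44.2, 44.8 and 44 CPM (log2 -0.95 ± 0.17, adjusted p = 0.000897). Jade3, a scaffold of the related KAT7 complex, was at 50.8, 50.7 and 54.1 CPM against 26.4, 26.2 and 24.4 CPM (log2 1.02 ± 0.18, adjusted p = 0.000722), and for both genes the libraries of a group lay close together. Among 26 genes of the GCN5 and PCAF complexes 1 was higher and 6 lower (median log2 -0.23), led by Wdr5, a subunit shared with histone methyltransferases, at 116, 62.5 and 65.6 CPM against 263, 219 and 199.8 CPM (log2 -1.49 ± 0.23, adjusted p = 0.000258). GCN5 and PCAF calls higher in siP300 numbered 4 with library size alone, and lower calls 2 with library size alone or without the 3 MERVL-high libraries and 3 without siP300 3. Of 40 deacetylase and corepressor genes 4 were higher and 5 lower (median log2 0.09), no more than the 14.4% and 12.6% of all genes. Deacetylase and corepressor calls higher in siP300 numbered 9 with library size alone, 2 without siKat6b 1 or siKat6b 3 and 1 without the 3 MERVL-high libraries, and lower calls 2 with library size alone or without the 3 MERVL-high libraries and 9 without siP300 1. The median was -0.03 without siP300 1 and -0.00 without siKat6b 2.

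Repressive chromatin genes had more lower than higher calls, against 12.6% lower and 14.4% higher over all genes. DNA methylation and Polycomb genes were higher in 5 and lower in 10 of 36, with a median log2 fold change of -0.18. Methylation and Polycomb calls higher in siP300 numbered 8 with library size alone, 2 without siP300 3 or without the 3 MERVL-high libraries and 3 without siKat6b 1, siKat6b 2 or siKat6b 3, and lower calls 5 with library size alone and 4 without the 3 MERVL-high libraries. The median was 0.03 with library size alone. Dnmt3b, a de novo DNA methyltransferase, stood at 18.8, 8.82 and 15.8 CPM in siP300, 43.2, 47.9 and 43.7 CPM in siKat6b and 69.6, 62.3 and 64.2 CPM in siControl, 3 separate ranges (siP300 minus siKat6b log2 -1.63 ± 0.22, adjusted p = 8.04e-05). Ezh2, the Polycomb methyltransferase, was at 104, 55.2 and 72.9 CPM against 142, 167 and 134 CPM (log2 -0.94 ± 0.19, adjusted p = 0.00187), while Phc2, a subunit of the other Polycomb complex, was higher at 12.7, 19.5 and 21.3 CPM against 4.6, 4.95 and 6.49 CPM (log2 1.74 ± 0.31, adjusted p = 0.000659). Retroelement silencing genes were higher in 2 and lower in 11 of 30 (median log2 -0.22). Trim28, the corepressor KAP1, was at 159, 89 and 133 CPM against 296, 280.1 and 268 CPM (log2 -1.15 ± 0.20, adjusted p = 0.000672), Smarcad1, a remodeller, at log2 -1.08 ± 0.18 (adjusted p = 0.000466), and Zfp57, a zinc finger protein that guards imprinted methylation, at 12, 8.09 and 4.09 CPM against 20.7, 21.7 and 32.1 CPM (log2 -1.63 ± 0.32, adjusted p = 0.00143). Retroelement silencing calls lower in siP300 numbered 5 without the 3 MERVL-high libraries.

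Genes of the 2-cell stage had no direction that held across the repeats. Of 33 tested none was called higher and 2 were called lower (edgeR), with a median log2 fold change of 0.17 between siP300 and siKat6b. Their summed level was 1689, 2464 and 868 CPM in siP300 and 1770.3, 1337 and 2240.3 CPM in siKat6b, so that the groups overlapped widely. The 2-cell median was -0.90 without siP300 2, -0.12 without siKat6b 2, 1.22 without siKat6b 3, 0.77 without siP300 3, 0.47 without siP300 1 and 0.28 without siKat6b 1. It was 0.81 without the 3 MERVL-high libraries, -0.58 with a replicate block, -0.22 with limma-voom, 0.34 with library size alone and 0.32 with no filter on low counts, where 7 of 40 were called higher. The same list had medians of 5.08 for siP300 and 4.40 for siKat6b over siControl, contrasts that share their control libraries. These medians give each member equal weight and do not describe the summed level. In siControl that sum was 1435 to 1501 CPM, inside the ranges of both groups. The list holds multi-copy families such as Zscan4, Tdpoz and Usp17l, whose members cannot be counted apart with certainty. Maternal oocyte transcripts had 1 higher and 5 lower of 28 (median log2 0.31). Their summed level was lower, at 1711 to 2178 CPM in siP300 against 3002 to 3509 CPM in siKat6b. Most of that sum was 1 gene, Dppa5a, at 1944, 1487 and 1512 CPM against 3179, 2750 and 2685 CPM (log2 -0.80 ± 0.18, adjusted p = 0.00413). The sum therefore does not describe the list in general. The maternal median ran from 0.12 without siKat6b 2 to 0.70 without siKat6b 3, and was 0.92 without the 3 MERVL-high libraries and -0.38 when at least 5 CPM in 3 libraries was asked. Maternal transcript calls higher in siP300 numbered 4 with library size alone and 3 with DESeq2, and lower calls 3 without the 3 MERVL-high libraries. Ooep, a component of the subcortical maternal complex, was at 15.1, 15.8 and 21.7 CPM against 54.8, 46.6 and 39.8 CPM (log2 -1.42 ± 0.21, adjusted p = 0.00017), and Btg4, which drives maternal messenger decay, was higher at 8.67, 14.3 and 12.6 CPM against 1.8, 1.44 and 1.22 CPM (log2 2.99 ± 0.49, adjusted p = 0.000392). A list of germline genes known as silenced by DNA methylation had 9 higher and 6 lower of 40 (median log2 0.37). Its members were not all silent here, with a summed level of 1751 to 2412 CPM in siKat6b and 1799 to 2011 CPM in siControl. Taf7l, a germ cell form of a TFIID subunit, stood at 200.4, 134 and 200 CPM in siP300, 3.37, 2.89 and 5.48 CPM in siKat6b and 1.29, 0.845 and 3.26 CPM in siControl (log2 5.50 ± 0.36, adjusted p = 2.00e-07). Tex15, a factor of the meiotic and piRNA pathways, was at 115, 226 and 319 CPM against 23.1, 18.9 and 42.4 CPM (log2 2.96 ± 0.38, adjusted p = 5.23e-05), and Sycp3, of the synaptonemal complex, at 434, 605 and 487 CPM against 241, 159 and 196 CPM (log2 1.36 ± 0.21, adjusted p = 0.000243). Germline calls higher in siP300 numbered 5 without siP300 3 and 4 without the 3 MERVL-high libraries. Proteasome genes had 3 higher and 5 lower of 38 (median log2 -0.32), shares below or near the 14.4% and 12.6% of all genes. Histone genes had 0 and 3 of 16 (median log2 -0.34). Proteasome calls lower in siP300 numbered 16 without siP300 2, 1 without siP300 3, 3 without siKat6b 1 and 12 without the 3 MERVL-high libraries. Histone calls lower in siP300 numbered 1 with library size alone or without the 3 MERVL-high libraries.

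Genes known from neurons were higher in 13 of 30 and lower in 1 (median log2 1.28). Uchl1, a deubiquitinase abundant in neurons, stood at 248, 205 and 208 CPM in siP300 and 40.4, 33 and 85.2 CPM in siKat6b, with siKat6b 3 the highest of its group (log2 2.06 ± 0.32, adjusted p = 0.000224). Elavl3, a neuronal RNA-binding protein, was at 16.6, 16.7 and 30.7 CPM against 2.69, 2.06 and 4.87 CPM (log2 2.73 ± 0.40, adjusted p = 0.000153), and Syt11, a synaptotagmin, at 16.1, 17.6 and 33 CPM against 4.83, 1.65 and 2.44 CPM (log2 2.91 ± 0.41, adjusted p = 0.000111). Left without the 3 MERVL-high libraries, the list had 11 higher and 1 lower. Markers of other cell types were low but not equal. Summed over 8 cumulus and granulosa markers the libraries held 10.8 to 17.3 CPM in siP300 and 3.85 to 5.28 CPM in siKat6b. Fshr, the receptor that defines granulosa cells, was at 0 in all 6 libraries. Of the 8, 5 carried too few counts to be tested and 1, Tnfaip6, was called higher. A longer list of 15 such markers had 7 tested, of which 3 were called higher and 0 lower and 5 lay higher without overlap (median log2 3.06). Over all genes 14.4% were called higher and 21.2% lay higher without overlap. The summed level of the longer list was 49.9 to 118 CPM in siP300, 19.8 to 36 CPM in siKat6b and 14 to 22 CPM in siControl. The median of the longer list ran from 0.90 to 3.09 with 1 library left out, and 1 member was higher without the 3 MERVL-high libraries. Over 7 oviduct and stromal markers the ranges were 4.25 to 7.78 and 3.3 to 6.06 CPM, with Col3a1 at 0 throughout. Over 6 blood and immune markers they were 56.5 to 166 and 6.96 to 31.1 CPM. Ptprc, the pan-leukocyte marker, was at 0 in siP300, and Hbb-bs, a beta globin, was at 0 throughout. The difference there came from Hba-a1, an alpha globin, at 30.5, 112 and 75.5 CPM against 1.57, 2.89 and 26.2 CPM, and from Cd68, a macrophage lysosomal protein, at 22.9, 48.1 and 42.4 CPM against 4.04, 3.92 and 3.25 CPM. Longer lists for blood and immune cells and for oviduct, stroma and fibroblasts had 8 and 6 members tested. The first had 3 higher and 1 lower and the second 0 and 1, against 14.4% and 12.6% of all genes. Of the morula and trophectoderm markers all 6 were detected in every library, with a summed level of 855 to 1044 CPM in siP300 and 1213 to 1738 CPM in siKat6b, and inner cell mass markers held 52.4 to 199 and 276 to 363 CPM. The part of other cells in the differences was not tested.

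**Figure D4:**
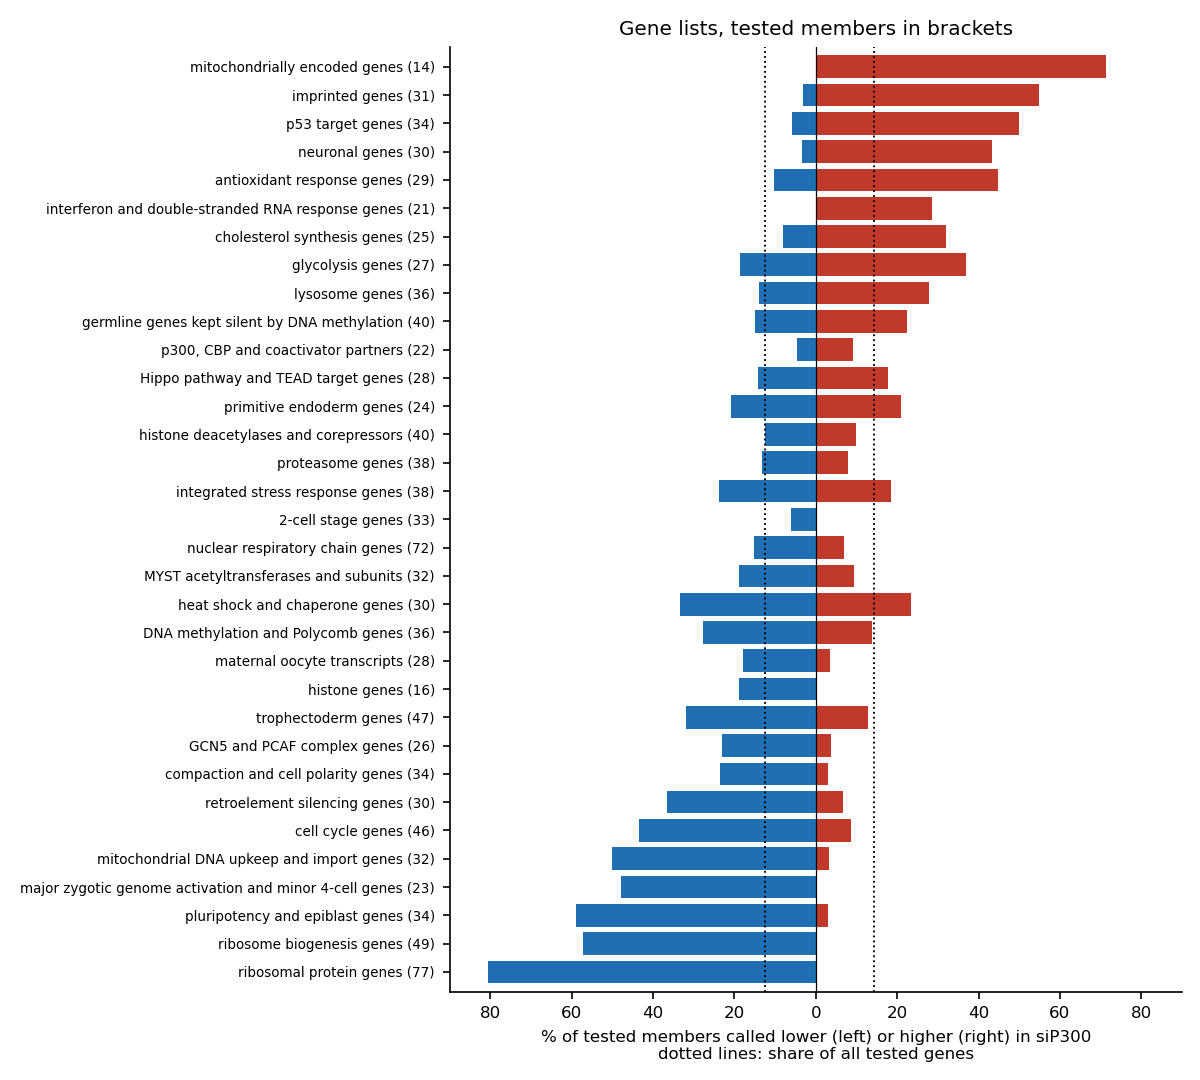
Share of the tested members of each list called higher (red, right) or lower (blue, left) in siP300 than in siKat6b, with the number tested in brackets and lists under 14 tested left out. Dotted lines mark the shares over all genes, 14.4% and 12.6%, and the longest bars are 62 of 77 ribosomal protein genes lower and 10 of 14 mitochondrially encoded genes higher.

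The largest single-gene differences were in genes known from many tissues. On the higher side Ccdc153, a coiled-coil gene of ciliated cells, was at 7.75, 50.4 and 64.1 CPM in siP300 and 0, 0.206 and 0 CPM in siKat6b, and Zcchc12 at 17.3, 15.6 and 19.6 CPM against 0, 0 and 0.203 CPM, both with too few siKat6b counts for a fold. Mt3, a brain metallothionein, was at 54.1, 69.5 and 20.6 CPM against 0.449, 0 and 0.406 CPM (log2 7.35 ± 0.66, adjusted p = 2.33e-06). Gng3, a neuronal G protein subunit, was at 72.1, 90.7 and 54.5 CPM against 0.674, 1.24 and 0.406 CPM (log2 6.53 ± 0.50, adjusted p = 6.30e-07). Sncg, gamma-synuclein, was at 44.1, 74.4 and 60.9 CPM against 1.57, 0.206 and 1.22 CPM (log2 5.90 ± 0.48, adjusted p = 1.01e-06), so that these genes were nearly silent in siKat6b. Cyp7b1, an oxysterol hydroxylase, was at 20, 18.4 and 13.3 CPM against 0.225, 0.206 and 0 CPM, also too few for a fold, and Slc34a3, a phosphate transporter of the kidney, at 6.09, 34.5 and 20.5 CPM against 0.449, 0.413 and 0 CPM (log2 6.11 ± 0.87, adjusted p = 0.000128). Nxph1, a neurexophilin, and Vcan, the matrix proteoglycan versican, were called higher with an uneven level within siP300, at 11.1, 38.4 and 118 and 2.77, 15.4 and 31.6 CPM, against 0.674, 0.206 and 1.62 and 0.449, 0.206 and 0 CPM.

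On the lower side Drd3, the D3 dopamine receptor, was the most abundant of those named, at 5.72, 7.57 and 7.65 CPM in siP300, 128, 166 and 167 CPM in siKat6b and 127, 121 and 112 CPM in siControl (log2 -4.46 ± 0.53, adjusted p = 2.77e-05). Serpinb6c, a serine protease inhibitor, was at 5.72, 17 and 5.77 CPM against 89.3, 82.8 and 88.2 CPM (log2 -3.21 ± 0.35, adjusted p = 1.12e-05), and Mboat1, a phospholipid acyltransferase, at 6.46, 7.05 and 2.95 CPM against 47.4, 43.7 and 67.6 CPM (log2 -3.29 ± 0.30, adjusted p = 2.67e-06). Hcrt, the orexin precursor, was at 0.369, 0.726 and 1.48 CPM against 23.9, 20.1 and 15.9 CPM (log2 -4.47 ± 0.41, adjusted p = 2.67e-06). In these genes every siP300 library was far below every siKat6b library. Prl3b1, a placental prolactin relative, was at 0, 0.415 and 0 CPM against 11.9, 15.3 and 11.4 CPM, too few siP300 counts for a fold (adjusted p = 1.85e-05), Tat, tyrosine aminotransferase, at 2.21, 0.83 and 2.01 CPM against 13.2, 15.4 and 20.9 CPM (log2 -3.26 ± 0.39, adjusted p = 2.80e-05), and Mybpc2, a muscle myosin-binding protein, at 3.14, 0.83 and 4.96 CPM against 30.8, 24.6 and 31.2 CPM (log2 -3.23 ± 0.50, adjusted p = 0.000237). Enpp3, an ectoenzyme, had its 3 siKat6b libraries above the 3 of siControl, at 13.5, 13.2 and 10.8 CPM against 4.1, 6.76 and 4.68 CPM in siControl and 0.553, 1.45 and 1.74 CPM in siP300.

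A485, a small molecule that inhibits the catalytic activity of p300 and CBP, gave a comparison that shares no library with the siRNA groups, in 3 libraries against 3 of Vehicle. The exposure differs in kind and length, from E2.5 to E2.75 in place of from E0.5. Of 17194 genes tested in both, 22.5% were called higher with A485 and 24.9% lower. Of the 2443 genes higher in siP300 than in siKat6b, 1350 (55.3%) were higher with A485, which is 34.9% of the A485-higher genes, and 122 were lower. Of the 2351 genes lower in siP300, 1417 (60.3%) were lower with A485, 33.1% of the A485-lower genes, and 124 were higher. Gng3 was higher in both (84.1 ± 13.2 CPM with A485 against 1.11 ± 0.541 CPM with Vehicle, mean ± SD, n = 3; edgeR log2 6.23, adjusted p = 2.96e-08). Atf3 was likewise higher (89.7 ± 23.5 CPM with A485 against 0.363 ± 0.478 CPM with Vehicle, mean ± SD, n = 3; edgeR log2 7.87, adjusted p = 1.09e-07). Gstm1 was higher as well (45.1 ± 13 CPM with A485 against 5.33 ± 2.44 CPM with Vehicle, mean ± SD, n = 3; edgeR log2 3.08, adjusted p = 6.79e-05). On the other side both comparisons had lower Mboat1 and Drd3. Mboat1 fell with A485 (1.31 ± 0.666 CPM with A485 against 31.5 ± 6.3 CPM with Vehicle, mean ± SD, n = 3; edgeR log2 -4.58, adjusted p = 1.87e-06). Drd3 did too (1.1 ± 0.716 CPM with A485 against 60.5 ± 5.37 CPM with Vehicle, mean ± SD, n = 3; edgeR log2 -5.79, adjusted p = 6.27e-08). By list, pluripotency genes were lower with A485 in 31 of 32 tested, ribosome biogenesis genes in 40 of 49 and mitochondrially encoded genes higher in 8 of 13. For ribosomal protein genes A485 had 22 of 76 higher and 14 lower where siP300 against siKat6b had 62 of 77 lower. For p53 targets A485 had 7 of 31 higher and 9 lower, and for 2-cell stage genes 0 of 33 higher and 26 lower. Whether these list counts differ between the comparisons was not tested.

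The genes that went opposite ways, named after their values were seen, included 3 of the 5 Dlk1-Dio3 transcripts called higher in siP300. Of the other two, Mirg was not called with A485 (log2 -1.86, adjusted p = 0.298) and Dlk1 was at 0 in every A485 and Vehicle library. Meg3 was at 0.157, 0 and 0 CPM with A485 and 6.08, 6.33 and 7.59 CPM with Vehicle (adjusted p = 3.34e-06), low where siP300 was high. Rian was at 0 in every A485 library and at 3.04, 1.81 and 3.27 CPM with Vehicle (adjusted p = 3.26e-05), and Rtl1 was likewise at 0 against 0.737, 1.08 and 1.25 CPM (adjusted p = 0.000474). H2-Eb1, a class II histocompatibility gene, was at 29.9, 47.3 and 60.4 CPM in siP300 and 6.74, 2.48 and 6.29 CPM in siKat6b but at 0.315, 0.181 and 0.515 CPM with A485 and 4.61, 2.17 and 2.5 CPM with Vehicle (A485 log2 -3.15, adjusted p = 0.00042). In the other direction Ybx1, an abundant RNA-binding cold shock protein, was at 379.8, 367 and 295 CPM in siP300 and 1074, 908 and 642 CPM in siKat6b (log2 -1.33 ± 0.21, adjusted p = 0.000227), and at 906, 649 and 816 CPM with A485 and 342, 378 and 326 CPM with Vehicle (log2 1.18, adjusted p = 0.000195). Tceal9, a gene of the transcription elongation factor family, showed the same crossing at 6.09, 12 and 1.88 against 44.9, 69.5 and 30 CPM and 80.6, 48.4 and 44 against 11.8, 6.15 and 3.08 CPM (A485 log2 3.04, adjusted p = 0.000257).

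**Figure D5:**
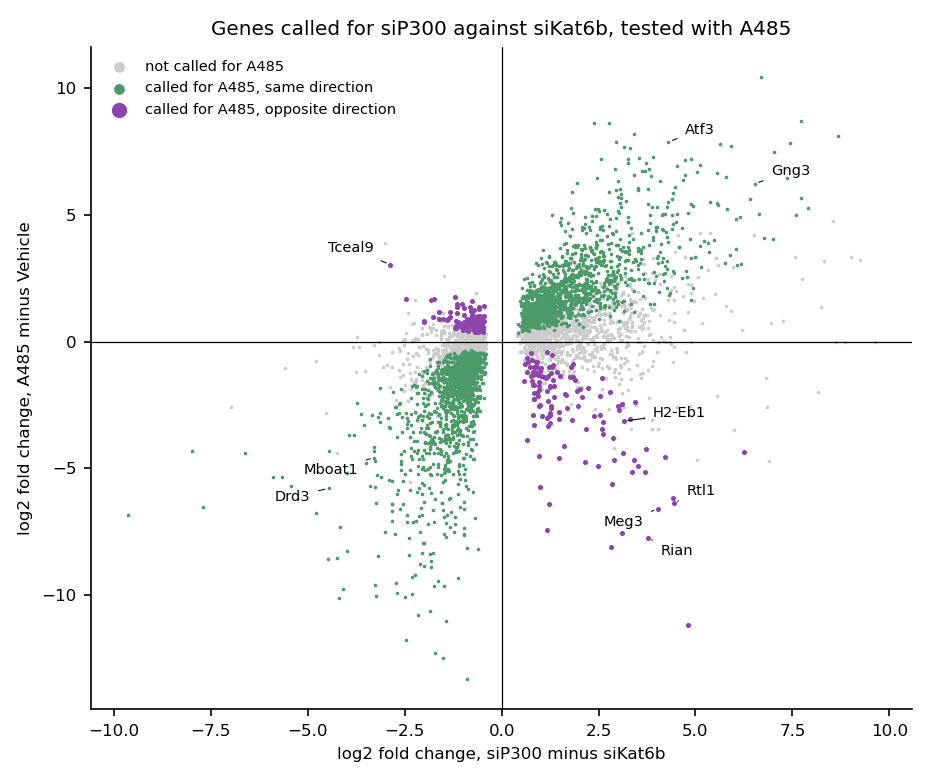
Log2 fold change with A485 over Vehicle against that of siP300 over siKat6b for genes called in the siRNA comparison and tested in both, 1 point per gene. Most genes also called for A485 lie in the lower left and upper right (1417 and 1350 genes), and Meg3, Rian and Rtl1 lie at the lower right among 122 genes higher in siP300 and lower with A485.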

How the data were processed

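RNA sequencing libraries of pooled mouse embryos were compared. The values used were the whole-number counts per gene that the authors deposited for the series, identical to the deposited table of each of the 27 libraries. Per the submitters' processing notes, STAR 2.7.11a, featureCounts, Subread 2.0.6, MultiQC and Scanpy 1.8.2 were used, with the builds mm10 and GRCh38 named. No source used here gives the annotation release, whether strand was used, or how reads with several positions were treated. Between 83.8 and 85.0% of nonzero counts were even in the 6 libraries, so both reads of a pair may have been counted, and halved counts were an alternative.

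Counts were scaled by TMM and filtered by filterByExpr (minimum count 10), and the 15 siRNA libraries were fitted together in edgeR 4.0.16 (quasi-likelihood test, R 4.3.3). Benjamini-Hochberg adjustment ran over all 19182 genes, and called means an adjusted p under 0.05. A485 was fitted with the inhibitor libraries in the same way. A prior count of 2 was used for the log CPM of the correlations and principal components. The fitted fold changes kept the default prior count of edgeR. DESeq2 1.42.0 and limma 3.58.1 (voom) were alternatives. Python 3.11.15 was used for tables and exact permutation tests.

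Genes named were, for each list, up to 5 called members with the lowest adjusted p (or the most abundant member), the 15 higher and 15 lower genes with the largest fold changes at 10 CPM or more in the higher group and no overlap, and the targeted genes, relatives and MERVL-int. A gene outside this rule is said to have been chosen after its values were seen. The members, lists and rule were chosen with earlier results of these data known. Replicate pairs of the 6 libraries differed by more than sampling noise (chi-square per degree of freedom 18.1 to 49.2), so none was counted as 1 library. The test was tried on simulated counts of 17464 genes for this comparison. Of the changed genes 0 of 67 at 1.5-fold, 12 of 67 at 2-fold and 43 of 66 at 4-fold were recovered, with 1 false call of 56. So few changed genes make the adjustment stricter than in the data, where 27% of genes were called. The recovered shares therefore do not give the power of the real comparison. An exact permutation test of 3 against 3 cannot give a p below 0.1. 1 named gene is not reported here.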

Additional observations from a re-analysis of the deposited data

How the results depend on the processing

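Against 5174 genes called, 3179 were called when just the 2 groups were fitted and 3405 when a change of at least 2-fold was also asked. Without siP300 2, siKat6b 1 and siKat6b 3 the count was 2698, with 1286 higher and 1412 lower. Lower calls, 2411 as reported, numbered 1500 with library size alone, 1289 with just the 2 groups and 1213 at 2-fold or more. With each library left out in turn, genes called ran from 3446 to 5257, higher calls from 1887 to 2812 and lower calls from 1559 to 2445, each lowest without siP300 3. The cause of these shifts was not tested, apart from fewer samples or a stricter rule where that is the alternative itself. The other alternatives stayed within 1.5 times of these counts, as did all those of A485 against Vehicle (8328 called). Of 184 named genes called, 137 were called under every alternative. None of the 184 took the opposite sign in any alternative, and 183 kept their direction without the 3 libraries. Named genes that were not called were not part of this check. With just the 2 groups fitted, calls lower in siP300 numbered 18 of the ribosome biogenesis genes, 12 of the cell cycle genes, 9 of the mitochondrial upkeep and import genes and 6 of the genome activation genes. Other lists lost calls in that fit too, and not all are given here. For example, lower calls numbered 5 of the respiratory chain, 4 of the integrated stress response and 1 of the proteasome genes. Higher calls of deacetylase and corepressor genes numbered 1.

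Same-numbered libraries did not deviate together: they correlated at -0.09, -0.32 and -0.08 in their deviations from the group means. siP300 2 correlated at 0.20 and 0.16 with siKat6b 1 and siKat6b 3, the other MERVL-high libraries. With 3 libraries a group, these values cannot decide whether the samples were paired. With a replicate block 4683 genes were called, 2474 higher and 2209 lower.

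Low depth per gene limits genes at a few counts, and 3 libraries a group limit all p-values.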

Other observations

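Genes called in the 2 directions differed in kind. Of genes called higher in siP300 than in siKat6b 88.1% were protein coding, of those called lower 82.7% and of all tested 77.0%. Long noncoding RNAs made up 8.54%, 10.1% and 14.2% of these sets, and pseudogenes 1.01%, 4.36% and 4.95%. The median level in siKat6b was 4.14 CPM for genes called higher and 61.7 CPM for genes called lower, against 8.07 CPM over all genes tested.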
